A study of Mus musculus with 33 samples.

Results

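The expression of 10 genes of brain endothelium and the blood-brain barrier was followed in mouse frontal cortex RNA-Seq: Cldn5, Ocln, Cdh5, Pecam1, Slc2a1, Mfsd2a, Abcb1a, Flt1, Kdr and Tek. These 10 members were taken by symbol from the 23366 genes that each of the deposited raw count tables lists, and all 10 were found in both tables. The 33 libraries came from C57BL/6 offspring about 1 month old, 16 labelled female and 17 labelled male, with 1 table per sex. Through gestation, dams inhaled one of 3 atmospheres in whole-body chambers: filtered air, aerosol of e-cigarettes whose cartridges held 13 to 16 mg/mL nicotine, or aerosol of cartridges free of nicotine. Nursing dams and their pups then went through the same exposure. The groups held 6 air, 5 nicotine and 5 no nicotine libraries in females and 6 air, 6 nicotine and 5 no nicotine libraries in males, which are called by those names here. The study's methods state that 1 pup was used per litter. Whether a male and a female of the same treatment shared a litter is not stated, and no fit had a term for litter. The methods also state that the treatments used separate exposure chambers and that the sexes were sequenced in separate runs. Chamber and treatment therefore cannot be told apart, and levels are compared only within a sex.

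Endothelial cells line the vessels of the brain and form the blood-brain barrier, in which tight junctions seal the gaps between neighbouring cells, transporters carry nutrients inward and efflux pumps return foreign molecules to the blood. Vascular endothelial growth factor (VEGF) and angiopoietins, which signal through receptor tyrosine kinases on these cells, govern the growth and stability of the vessels. In whole cortex such transcripts report on a small share of the cells, and a change in the number of endothelial cells cannot be told apart from a change in the RNA per cell.

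Total counts ran from 19150562 to 27513174 in females and from 17845672 to 24787955 in males. The members were well covered, with 311 to 8031 reads in each library, and all 10 passed the filter on low counts in both tables. Values below are CPM, the reads of a gene scaled to library sizes that were adjusted by the trimmed mean of M-values (TMM), and changes are log2 fold changes from edgeR's quasi-likelihood test with a threshold of 0.01 on the adjusted p. The library labelled male nicotine replicate 21 held 219 CPM of Xist and 1 read of Y-linked genes, against at most 0.246 CPM of Xist in the other libraries labelled male and 114 to 158 CPM in females. It was kept under its label, and the member results it bears on are also given without it. Of the genes that define other cells, the 4 haemoglobin genes present in the data had at most 1 read in any library. Alas2, the haem synthesis gene of red cell precursors and the other gene of that list present, had 127 to 563 reads (5.66 to 25.6 CPM). Whether reads that match more than 1 gene were counted is not stated, so the haemoglobin counts do not measure blood. Slc17a7, the vesicular glutamate transporter of cortical neurons, had 654 to 2817 CPM over all libraries, so the defining transcripts of the labelled tissue were present.

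The promoters of 3 members are shown because these genes had the largest changes in the male no nicotine group described below. Each run is the 250 bases before the transcription start from RefSeq on build GRCm38.p6, read 5′ to 3′ on the gene's own strand, with matches to ACGTG (the core of hypoxia response and E-box-type elements) and to GGGCGG (the GC box) on either strand in capitals. Slc2a1 lies at chr4:119108495-119108744 on the plus strand, Mfsd2a at chr4:122961189-122961438 on the minus strand and Tek at chr4:94739039-94739288 on the plus strand.
Slc2a1: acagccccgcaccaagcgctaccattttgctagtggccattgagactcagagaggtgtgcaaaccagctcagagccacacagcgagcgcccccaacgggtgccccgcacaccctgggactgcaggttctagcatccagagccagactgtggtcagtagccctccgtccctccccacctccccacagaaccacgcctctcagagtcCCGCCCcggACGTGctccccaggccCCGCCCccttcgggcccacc
Mfsd2a: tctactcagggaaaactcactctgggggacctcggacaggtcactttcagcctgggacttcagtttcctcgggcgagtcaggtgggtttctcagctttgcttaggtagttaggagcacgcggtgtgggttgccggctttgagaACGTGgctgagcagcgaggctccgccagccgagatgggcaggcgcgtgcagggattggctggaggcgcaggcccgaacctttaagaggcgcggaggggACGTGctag
Tek: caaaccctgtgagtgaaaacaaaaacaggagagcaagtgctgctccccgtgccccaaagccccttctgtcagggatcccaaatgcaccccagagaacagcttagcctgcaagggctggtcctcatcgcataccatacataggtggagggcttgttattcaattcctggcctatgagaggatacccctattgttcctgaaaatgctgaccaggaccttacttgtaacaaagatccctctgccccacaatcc
The Slc2a1 window held 1 ACGTG and 2 GGGCGG matches, the Mfsd2a window held 2 ACGTG matches, and the Tek window held neither. ACGTG was present in 16.6% and GGGCGG in 32.7% of all 32851 RefSeq promoter windows of the same length. Of the 8 members with a RefSeq entry, only Slc2a1 and Mfsd2a had ACGTG in this window, while GGGCGG was also found in those of Cldn5, Flt1, Kdr and Ocln. The windows of Tek and Abcb1a held neither motif. These matches describe letters only.

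Among the members, Cldn5 and the glucose transporter gene Slc2a1 were the most abundant per length, and Ocln, also a tight junction gene, was the least. Claudin-5, encoded by Cldn5 on a single-exon gene at chr16:18776940-18778353 (mm9, plus strand), is the main sealing protein between brain endothelial cells. In female air libraries Cldn5 had 95.7 ± 13.2 CPM per kb of transcript (SD, n = 6) and Slc2a1 88 ± 10.4 CPM per kb, and these ranges overlapped. Below them came Mfsd2a at 22.1, Pecam1 at 15.9, Flt1 at 12.5, Cdh5 at 10.2, Kdr at 9.66, Tek at 8.07, Abcb1a at 8.01 and Ocln at 5.17 CPM per kb. The order of the 10 means was the same in male air libraries, from Cldn5 at 96.7 ± 13.1 and Slc2a1 at 73.6 ± 3.52 down to Ocln at 4.32 ± 0.274 CPM per kb (SD, n = 6). From Pecam1 down to Abcb1a the libraries of neighbouring genes overlapped in females, whereas Ocln lay below Abcb1a in both sexes with no overlap.

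In females neither aerosol moved any of the 10 genes past the threshold. With nicotine 0 of 10 members passed, where 4.29% of the 15158 genes tested did, and without nicotine 0 of 10 passed, where 12.1% of all genes did. At an unadjusted p below 0.05 the count of members was also 0 in both comparisons, where 28.1% and 36.4% of all genes were, and DESeq2 likewise called 0 members. Fold changes of the members ran from -0.08 to 0.07 with nicotine (median -0.02, against 0.00 over all genes) and from -0.13 to 0.03 without nicotine (median -0.04, against 0.01 over all genes). At the threshold of 0.01, a count of 0 in 10 members is close to these backgrounds. The 95% intervals of all 10 genes stayed between -0.36 and 0.29 with nicotine and between -0.41 and 0.26 without it. Between the aerosols 0 of 10 members differed, where 0.00% of all genes passed, 8.36% of all genes reached an unadjusted p below 0.05 and DESeq2 also called no gene.

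**Figure D1:**
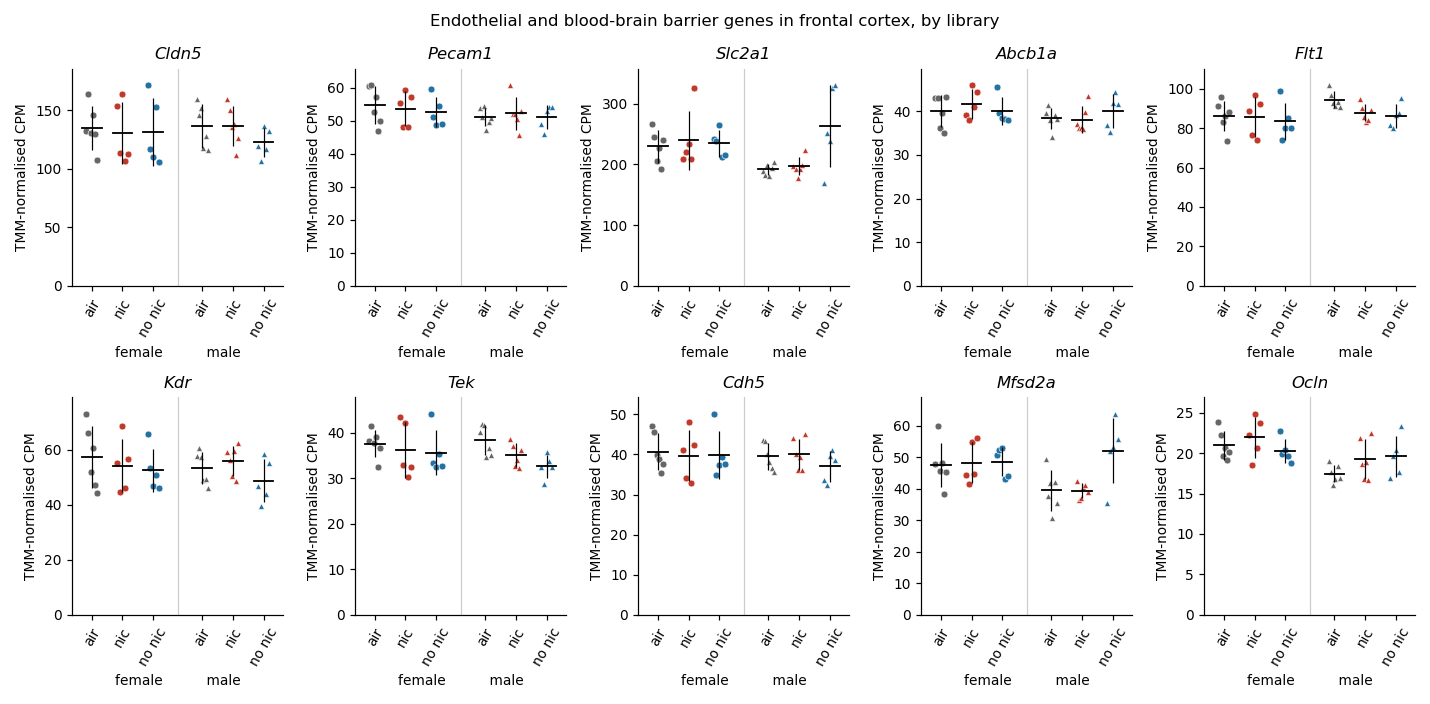
TMM-normalised CPM (y axis, from 0) of the 10 genes in every library, by exposure (x axis) for females (circles) and males (triangles), with horizontal bars at the group mean and vertical lines of 1 SD. The groups overlap in every panel, and the male no nicotine libraries spread most for Slc2a1, from 170 to 331 CPM.

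The junction genes of females showed how wide the spread within a group was. Cldn5 had 108, 132 and 164 CPM as the lowest, median and highest of the 6 air libraries. With nicotine its 5 libraries had 154, 114, 164, 107 and 113 CPM, and without nicotine they had 172, 117, 110, 153 and 106 CPM. Each exposed group therefore held some libraries at the top of the air range and others at or just under its bottom, and the coefficient of variation was 20.1% and 22.3%, against 13.8% in air. Ocln, which encodes occludin, another membrane protein of tight junctions, ran from 19.2 to 23.8 CPM in air, from 18.5 to 24.9 CPM with nicotine and from 18.8 to 22.7 CPM without. Cdh5, encoding VE-cadherin of the adherens junctions, ran from 35.4 to 47.1 CPM in air, 32.9 to 48.1 CPM with nicotine and 34.9 to 50.2 CPM without. Pecam1, the adhesion molecule CD31 by which endothelium is often recognised, had 54.7 ± 5.76 CPM in air (SD, n = 6), 53.7 ± 5.26 CPM with nicotine (SD, n = 5) and 52.7 ± 4.52 CPM without (SD, n = 5).

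The transporters of females also overlapped between groups. Slc2a1, encoding the glucose transporter GLUT1, had 193, 233 and 267 CPM as the lowest, median and highest of the air libraries. Its nicotine libraries had 208, 221, 233, 209 and 325 CPM, and its no nicotine libraries 242, 239, 265, 212 and 215 CPM. Nicotine replicate 6 stood above all other female libraries for this gene, and without it the change with nicotine turned from 0.06 to -0.08. Mfsd2a, a lipid transporter of brain endothelium that also holds down vesicle traffic across the cell, ran from 38.3 to 60 CPM in air, 41.6 to 55.9 CPM with nicotine and 43.1 to 52.8 CPM without. Abcb1a, an efflux pump of the P-glycoprotein kind, ran from 35.1 to 43.3 CPM in air, 38 to 46.1 CPM with nicotine and 37.9 to 45.6 CPM without. In mm9 transcripts 17% of the 50-base windows of Abcb1a are shared with Abcb1b or Abcb4, so its reads may be divided among them, although Abcb1b itself had only 1.05 to 2.27 CPM over all 33 libraries.

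The receptors of females gave small negative changes that did not pass. Kdr, encoding VEGF receptor 2, had 44.3, 56.4 and 73.1 CPM as the lowest, median and highest in air, and its nicotine libraries had 55.1, 44.7, 68.5, 46 and 56.6 CPM. Without nicotine it had 65.6, 53.3, 46.7, 50.8 and 46 CPM, and its change of -0.13 (SE 0.136, 95% interval -0.41 to 0.16) had an adjusted p of 0.546 in edgeR. Flt1, encoding VEGF receptor 1, changed by -0.01 with nicotine and by -0.05 without. Tek, the angiopoietin receptor TIE2, changed by -0.05 and -0.08. For all 3 receptors the exposed and air libraries overlapped.

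In males the nicotine aerosol moved no member past the threshold either. The count was 0 of 10, where 0.00% of the 15293 genes tested passed, 14.4% of all genes and 1 of 10 members had an unadjusted p below 0.05, and DESeq2 called 159 genes but 0 members. The changes ran from -0.13 to 0.14 (median 0.01, as over all genes), with 95% intervals between -0.26 and 0.32. Flt1 was the member at an unadjusted p of 0.0297 in edgeR, with a change of -0.11 and an adjusted p of 0.282. Its 6 nicotine libraries ran from 82.9 to 94.6 CPM (median 87.4) and its 6 air libraries from 90.7 to 102 CPM (median 92.9), so that most of the nicotine libraries lay below the lowest of air. When the library labelled replicate 21 was left out, the count of members called was also 0, and Flt1 had an unadjusted p of 0.065 (change -0.10, adjusted p 0.416 in edgeR).

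The male no nicotine group differed more. There 1 of 10 members passed, where 13.6% of the 15293 genes did and 6.15% passed as higher, so the share of members is no larger than the background. The member was Slc2a1, which was higher. Slc2a1 lies at chr4:118781316-118809935 on the plus strand in mm9 and overlaps an exon of Gm12868 on the opposite strand, whose reads could not be told apart if strand was not used in counting, which is not given in the sources used here. Its air libraries had 181, 192 and 204 CPM as the lowest, median and highest, and its nicotine libraries 178, 194 and 223 CPM. Replicates 2, 3, 4, 5 and 7 of the no nicotine group had 170, 252, 238, 325 and 331 CPM. All but 1 of these 5 libraries lay above every air and nicotine library and replicate 2 lay below all of them, so the groups overlapped. The change was 0.46 (SE 0.118, 95% interval 0.21 to 0.70, 1.37-fold) with an adjusted p of 0.00818 in edgeR's quasi-likelihood test.

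Mfsd2a also had its lowest no nicotine value in replicate 2, and it did not pass the threshold. It had 30.6, 39.7 and 49.5 CPM as the lowest, median and highest in male air and 36.5, 39.7 and 42.4 CPM with nicotine. Its no nicotine replicates 2, 3, 4, 5 and 7 had 35.5, 52, 53.1, 63.8 and 55.7 CPM, where replicate 2 was inside the range of air and the rest were above all air and nicotine libraries. The change was 0.39 (SE 0.119, 95% interval 0.14 to 0.64) with an adjusted p of 0.0213 in edgeR. The remaining transporter, Abcb1a, changed by 0.06 (95% interval -0.08 to 0.20), and Ocln by 0.16 (95% interval -0.02 to 0.35).

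The receptors lay on the other side of zero, also without passing. Tek had 34.6, 38.4 and 41.8 CPM as the lowest, median and highest in male air, and 32.4, 28.8, 35.8, 33.7 and 32.4 CPM in the no nicotine replicates. All but 1 of the no nicotine libraries were below the lowest of air, and the change was -0.23 (SE 0.0661, 95% interval -0.37 to -0.09) with an adjusted p of 0.0148 in edgeR. Flt1 had 81.4, 79.8, 86.8, 87.4 and 95.1 CPM without nicotine against 90.7 to 102 CPM in air, a change of -0.14 (SE 0.0479) with an adjusted p of 0.0462 in edgeR. Kdr changed by -0.13, Cldn5 by -0.16 and Cdh5 by -0.10, each with a 95% interval that included 0, and Pecam1 by 0.00 (95% interval -0.13 to 0.13). Slc2a1, Mfsd2a, Tek and Flt1 were the 4 members at an adjusted p below 0.05, where 24.7% of all genes were, and no further member had an unadjusted p below 0.05, where 36.0% of all genes did. Without the library labelled male nicotine replicate 21 the adjusted p of Flt1 was 0.0504 in edgeR. Over the 10 members the median change was -0.05, against 0.02 over all genes, and 0 members had groups that did not overlap, where 12.4% of all genes did. The count of such members was also 0 in the other comparisons, against 6.67% and 10.7% of all genes for females with and without nicotine, 1.01% between the female aerosols, 2.05% for males with nicotine and 2.15% between the male aerosols.

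**Figure D2:**
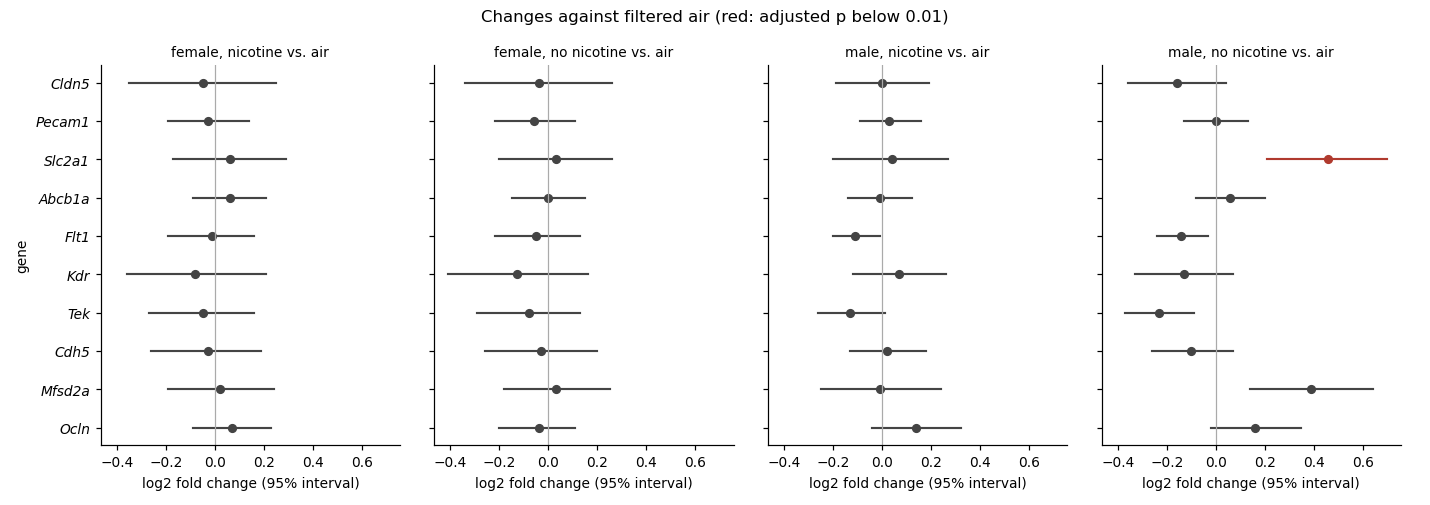
Log2 fold change against air (x axis) of each gene (y axis) in the 4 comparisons, as points with 95% intervals from edgeR, in red where the adjusted p was below 0.01. Only Slc2a1 in the male no nicotine comparison is red, at 0.46, and Mfsd2a lies next to it at 0.39 while Tek lies at -0.23.

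The call of Slc2a1 rested on a narrow margin. It was kept in 4 of the 17 fits that each left out a library, with adjusted p from 0.000147 to 0.0277 in edgeR and changes from 0.36 to 0.58, always upward. Without no nicotine replicate 2 the adjusted p was 0.000147 and Mfsd2a was called too (0.50, adjusted p 0.00133). In 4 fits another member was called and Slc2a1 was not: Mfsd2a without air replicate 30 (adjusted p 0.00686 in edgeR), Tek without air replicate 37 (0.00972) and without no nicotine replicate 4 (0.00957), and Flt1 without no nicotine replicate 7 (0.00989). Without no nicotine replicate 5 the adjusted p of Slc2a1 was 0.0277, without replicate 7 it was 0.0262, and it was 0.0106 when replicate 21 of the male nicotine group, which enters only through the shared estimate of spread, was dropped. Fitting the no nicotine and air groups alone gave 0.0228. The other leave-outs that lost the call were those of no nicotine replicates 3 and 4, of each air library and of nicotine replicates 15 and 16, with adjusted p between 0.0106 and 0.0192. DESeq2 called Slc2a1 (adjusted p 0.00164) and Tek (0.00454), and gave Mfsd2a 0.0103.

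Choroid plexus genes moved with the same group, and choroid plexus epithelium also makes GLUT1. The 8 listed choroid plexus genes summed to 13.7 to 40 CPM in male air, 23.6 to 36.4 CPM with nicotine and 30.2 to 960 CPM without nicotine. Without nicotine 3 of 8 were called higher (Ttr 5.28, Otx2 2.02 and Clic6 1.44), where 6.15% of all genes were. The sum of 960 CPM belonged to no nicotine replicate 7, in which Ttr, the transthyretin of choroid plexus, stood at 839 CPM. The other no nicotine libraries had 1.53 to 8.25 CPM of Ttr, inside the range of male air (0.255 to 19.4 CPM). Otx2 was also highest in replicate 7, at 4.36 CPM, against 0.354 to 1.73 CPM in the others. Clic6 had at least 17.9 CPM in every no nicotine library, against at most 12.2 CPM in male air. Replicate 5, with Slc2a1 at 325 CPM, had a sum of 31 CPM and 5.37 CPM of Ttr. In females air replicate 3 and no nicotine replicate 3 had sums of 330 and 290 CPM, with Slc2a1 at 205 and 265 CPM. The 7 listed myelin genes also rose in the male no nicotine group, from a sum of 9433 to 11541 CPM in air to one of 13743 to 23539 CPM, with Mbp, the myelin basic protein gene, at 11426 CPM in replicate 5. The 12 cortical glutamatergic genes summed to 8329 to 9762 CPM in air and to 4492 to 7699 CPM there, with 9 of 12 lower. The part of these cell mixtures in the level of Slc2a1 was not tested.

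Between the male aerosol groups 0 of 10 members were called, where 0.248% of all genes were, and 2 of 10 had an unadjusted p below 0.05, where 20.1% of all genes did. Slc2a1 had a change of -0.42 with nicotine against without ( 95% interval -0.67 to -0.17, adjusted p 0.0543 in edgeR) and Mfsd2a had a change of -0.40 (95% interval -0.65 to -0.15, adjusted p 0.0683). Without no nicotine replicate 2 both were called, with changes of -0.54 (adjusted p 0.00413 in edgeR) and -0.51 (0.00961). When replicate 21 of the male nicotine group was dropped, the adjusted p was 0.0895 for Slc2a1 and 0.101 for Mfsd2a in edgeR. These values share the no nicotine libraries with the comparison against air.

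The sexes were compared through 1 model of all 6 groups, as the female change minus the male change. It passed for 0 of 10 members and 0.00% of 15105 genes with either aerosol, and 6.47% of all genes with nicotine and 4.91% without nicotine had an unadjusted p below 0.05. With nicotine, 0 of 10 members passed in the 33 fits that each left out a library, that labelled male nicotine replicate 21 included. Slc2a1 gave -0.42 (95% interval -0.76 to -0.07, unadjusted p 0.019, adjusted p 0.945 in edgeR) and Mfsd2a -0.35 (95% interval -0.69 to -0.02, unadjusted p 0.0396, adjusted p 0.945) without nicotine. The higher Slc2a1 of no nicotine males is thus not shown to differ from the change of 0.03 in females. Cldn5 gave intervals of -0.40 to 0.32 with nicotine and -0.24 to 0.49 without, among the widest of the members.

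In several libraries most members lay on 1 side of their group medians, and these values share the library and its scaling. In female air replicates 1 and 2, all 10 members lay above their group medians, and in replicate 5 none did. Female nicotine replicate 3 and male nicotine replicate 15 also had all 10 above, while female nicotine replicates 2 and 5, female no nicotine replicate 5, male air replicate 37, male nicotine replicate 17 and male no nicotine replicates 2 and 3 had none. Replicate 3 of the male no nicotine group showed the members apart from one another: 7 of the 10 were at their group's lowest there, among them Cldn5 at 107 CPM, Kdr at 39.6 CPM and Tek at 28.8 CPM, whereas Slc2a1 at 252 CPM was at the group's median. Within-group coefficients of variation ran from 4.75% for Flt1 in male air to 25.4% for Slc2a1 in the male no nicotine group.

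**Figure D3:**
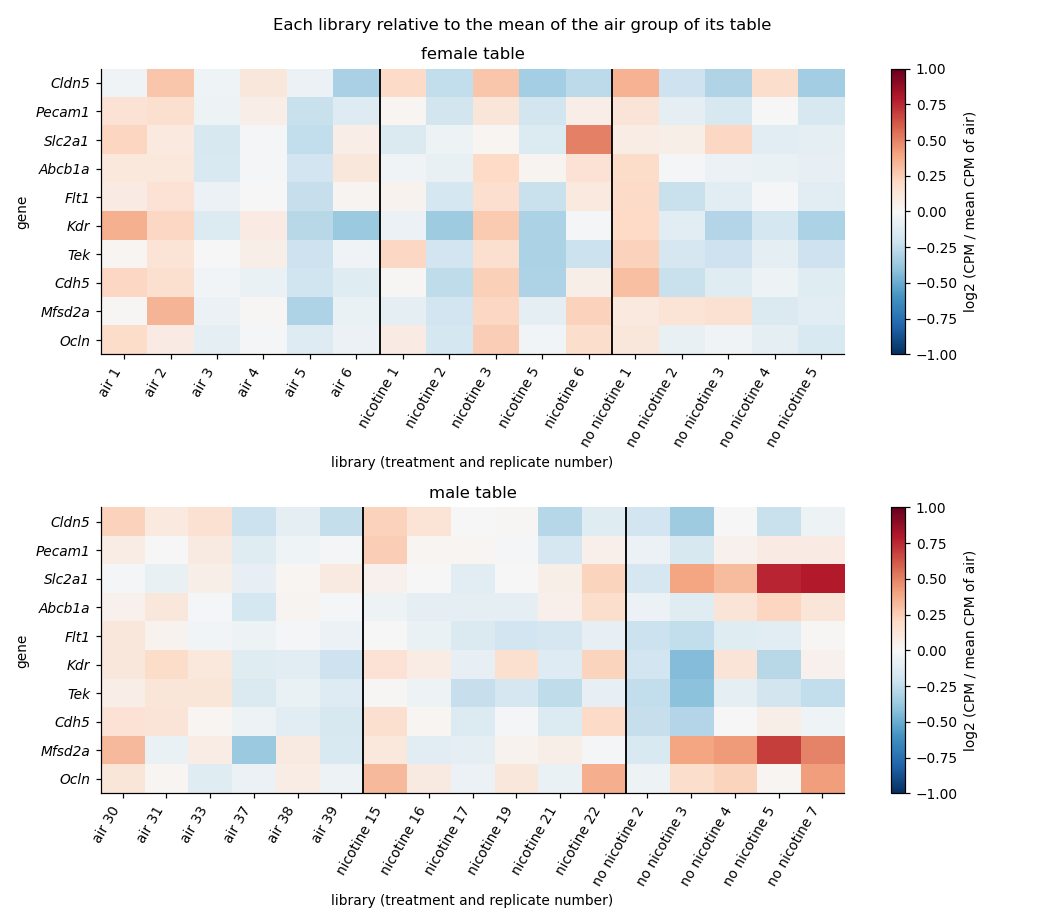
Log2 ratio of each gene's CPM to the mean of the air libraries of the same table (colour) for genes (rows) and libraries (columns), with vertical lines between exposure groups. Several columns have 1 colour for nearly all genes, such as female air replicates 1, 2 and 5, while Slc2a1 and Mfsd2a stand apart from the other members in 4 of the 5 male no nicotine libraries.

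Several lists of vessel cells had no calls, where 0.00% to 13.6% of all genes were called, depending on the comparison. Of 24 further endothelial identity genes, 0 were called in each of the 6 comparisons by edgeR, with median changes of -0.04, -0.06 and 0.02 for female nicotine, female no nicotine and male nicotine against air and of -0.07 for male no nicotine against air. Pericyte genes (0 of 10), genes of the vessel basement membrane (0 of 9) and genes of Wnt signalling to vessels (0 of 14) were not called in any comparison either. The pericyte marker Pdgfrb had medians of 71.7, 70.3 and 69.5 CPM in the female air, nicotine and no nicotine groups and 69.7, 69.9 and 64.7 CPM in the male groups. Plvap, a marker of leaky endothelium, had at most 4.97 CPM in any library. Vascular smooth muscle genes (0 of 6), genes of vessel and meningeal fibroblasts (0 of 8) and genes of perivascular macrophages (0 of 5) were not called at the threshold of 0.01, but their medians were further from 0. In females without nicotine the median was 0.60 for smooth muscle genes and 0.33 for fibroblast genes, with 4 of 6 and 2 of 8 at an adjusted p below 0.05. In males with nicotine these medians were 0.45 and 0.39, with 0 genes below 0.05. Summed smooth muscle genes there had a median of 148 CPM and a highest library of 326 CPM, against 140 and 191 CPM in male air. Summed fibroblast genes had a median of 409 CPM and a highest library of 883 CPM, against 354 and 458 CPM in male air. In males without nicotine the macrophage genes had a median of -0.32, with 1 of 5 below 0.05.

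Single genes of the barrier's wider machinery passed the threshold in RNA of whole cortex, and which cells carried their changes was not tested. Over all genes 4.29% passed in females with nicotine, 12.1% in females without and 13.6% in males without. Among 15 junction partners Jam3, a junctional adhesion molecule, was higher in females with nicotine (50.8 ± 1.37 against 41.5 ± 1.31 CPM, change 0.29, SE 0.0611) and without (change 0.26, SE 0.0611), and in males without nicotine (54.3 ± 5.97 against 41.8 ± 2.03 CPM, change 0.38, SE 0.0653). Cgn, encoding cingulin of the inner face of tight junctions, was higher in the no nicotine groups (0.71 in females and 0.73 in males) at levels of at most 3.22 CPM. No other junction partner passed. Jam3 passed in the same comparisons as all 7 myelin genes. Of 17 tested barrier transporters (of 18 listed), 1 passed, Lrp8, a receptor for apolipoprotein E and reelin. Lrp8 was lower in females without nicotine (-0.31), where 10 of 12 cortical glutamatergic genes were lower too. Of 6 genes of caveolae and the vesicle route, Cav2, encoding caveolin-2, was lower in females with nicotine (-0.31) and without (-0.28) and in males without nicotine (56.1 ± 6.25 against 76 ± 7.19 CPM, change -0.44, SE 0.0762). The other 5 genes of that list, among them Cav1 and Plvap, did not pass.

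Some ligands and inflammatory genes passed in the no nicotine groups, where 12.1% of all genes passed in females and 13.6% in males. Of 16 genes of the VEGF and angiopoietin system, 0 passed in the comparisons of females or of male nicotine with air. In males without nicotine 2 passed, a share no larger than that of all genes. Vegfa, the main ligand of Flt1 and Kdr, was higher there (69.1 ± 6.82 against 53.5 ± 3.37 CPM, change 0.37, SE 0.0641), and Vegfc, a ligand mainly of lymphatic endothelium, was lower (change -0.53, SE 0.115). Of 5 tested endothelial activation genes (of 8 listed), Ptgs2, encoding cyclooxygenase-2, which cortical neurons also make, was lower without nicotine, with changes of -0.91 in females and -0.92 in males. Darc, the chemokine-binding receptor of venules, was lower in males without nicotine (59.7 ± 4.72 against 81.6 ± 2.95 CPM, change -0.45, SE 0.0702). The adhesion molecules Sele and Selp had at most 4 and 8 reads in a library and were not tested.

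These small or absent changes stood beside large ones in other cell types of the same libraries. Among all genes tested, 4.29% passed in females with nicotine, 12.1% in females without and 13.6% in males without. All 7 myelin genes were higher in females with nicotine (0.66 to 0.81) and without (0.59 to 0.69) and in males without nicotine (0.65 to 0.75). Cortical glutamatergic genes were lower in 10 of 12 cases in females without nicotine and 9 of 12 in males without nicotine. In females with nicotine 0 of 12 passed at 0.01, although 11 of 12 were negative (median -0.63) and 9 of 12 had an adjusted p below 0.05. Striatal projection neuron genes were higher for 3 of 9 in females with nicotine, 1 of 9 in females without and 2 of 9 in males without, led by Tac1. Of 8 astrocyte genes, whose endfeet wrap the vessels, 2 were higher in males without nicotine (Mlc1 0.24 and Hepacam 0.18) and 0 were called in the other comparisons with air. The upper bound over the intervals of all 10 members lay under the smallest change of a myelin gene in females with nicotine (0.29 against 0.66) and without (0.26 against 0.59). This did not hold in males. There the bound was 0.70 without nicotine, where the smallest myelin change was 0.65. With nicotine it was 0.32, above all myelin changes (0.11 to 0.25). Whether the balance of tissue captured in each library bears on any member was not tested.

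**Figure D4:**
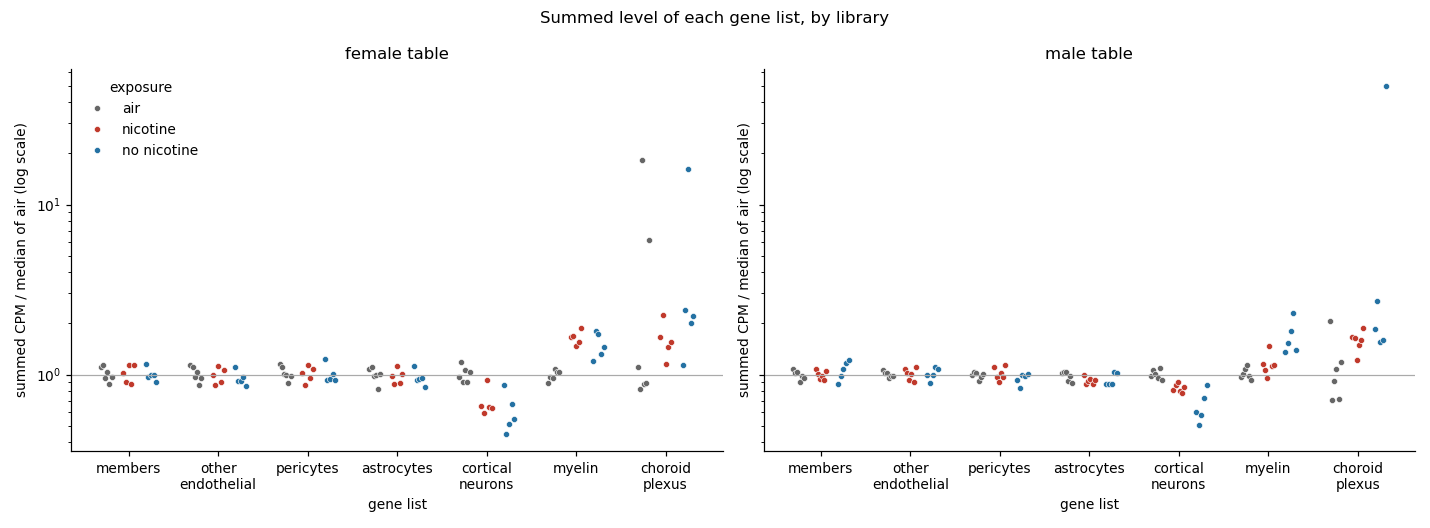
Summed CPM of each gene list in each library divided by the median of air of the same sex (y axis, log scale) for 7 lists (x axis), coloured by exposure. The 10 members, the other endothelial genes, pericytes and astrocytes stay near 1 in every group. Myelin rises and cortical neuron genes fall in both female exposed groups and in males without nicotine. They move less in males with nicotine, where no gene of these lists passed the threshold. Choroid plexus genes are far above the rest in male no nicotine replicate 7, female air replicates 3 and 6 and female no nicotine replicate 3.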

How the data were processed

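Frontal cortex libraries of 33 offspring were used. The authors mapped single reads to the mm9 transcriptome with Bowtie, removed PCR duplicates with SAMtools, counted reads per gene with HTSeq and deposited raw counts in 1 table per sex. Their normalized tables were not used. By name, 33 of the 34 count columns corresponded to a labelled sample, and the remaining 1 was left out.

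The counts were analysed with edgeR 4.0.16 in R 4.3.3. Genes with CPM summing to at least 5 over the libraries of a sex were tested in 1 fit of the 3 groups of that sex (TMM scaling, quasi-likelihood test, Benjamini-Hochberg adjustment over all genes tested, threshold 0.01). The filter removed at most 0.0341% of the counts of a library. All p-values are two-sided, and the 95% intervals come from the fit's standard error and degrees of freedom. The difference between sexes used 1 fit of all 6 groups. Alternatives were DESeq2 1.42.0, other scalings and filters, fits of 2 groups, a replicate block and leaving out each library. The fit was tested on simulated data first. Levels per kb use transcript lengths of GENCODE vM1, which is on mm9. RefSeq promoter windows are on GRCm38.p6 and were used for sequence only.

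The members and gene lists were chosen with earlier results of these data known. All 10 members are named, and of each other list up to 4 genes per comparison, chosen by smallest p from those below the threshold. Genes given besides these as markers or references were chosen after their values were seen. The pairs of libraries within a group differed by more than sampling noise (chi-square per degree of freedom 4.46 to 30.9), so none was counted as a duplicate.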

Additional observations from a re-analysis of the deposited data

Results flagged for a closer look

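In 60 groups of a gene, sex and exposure, the library farthest from the others was compared with Dixon's 95% critical value, which chance alone passes in about 1 group in 20. It was passed in 4 groups. Slc2a1 was at 325 CPM in female nicotine replicate 6, where the next library of the group had 233 CPM. In that library 8 of the 10 members lay above their group medians, among them Mfsd2a at 55.9 CPM, the group's highest, while Cldn5 was at 113 CPM, below its group median of 114 CPM. Female no nicotine replicate 1 was high for 3 genes, with Abcb1a at 45.6 CPM (next 39.6 CPM), Tek at 44.2 CPM (next 35.3 CPM) and Cdh5 at 50.2 CPM (next 39.3 CPM). The same library held the group's highest value for 8 of the 10 members.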

How the results depend on the processing

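Members called in males without nicotine against air were 1, and became 4 at an adjusted p below 0.05, 0 with only the 2 groups fitted, 2 with DESeq2 and 0 to 2 when 1 library was left out. For males with nicotine against without, leaving out 1 library gave 0 to 2, and in every other comparison all alternatives gave 0. Upper quartile scaling turned the change of Flt1 (female nicotine) to 0.0091, of Abcb1a (female no nicotine) to 0.0135, of Cdh5 (female nicotine against no nicotine) to 0.0018 and of Cldn5 (male nicotine) to 0.0019. Abcb1a in females without nicotine became 0.0053 with no filter and 0.0052 with a stricter one, and Pecam1 in males without nicotine became -0.0059 with DESeq2 size factors and -0.0061 with DESeq2. None of these was called in either fit, and the cause was not tested.

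Replicate numbers of females were not treated as pairs in the main fits. Of the same-numbered pairs, 4 of 14 correlated above 0.1 (r from -0.273 to 0.266). Best correlation with a library of their own number was found for 7 of 16 libraries, so pairing was not settled. With the replicate block 0 members were called, Abcb1a (female no nicotine) became 0.0202, and between the female aerosols Cldn5 became 0.089 and Slc2a1 -0.064. Over all genes the block left 136 and 736 calls of 651 and 1829 in the nicotine and no nicotine comparisons of females. DESeq2 gave 1319 calls for females with nicotine, 159 against 0 for males with nicotine and 456 against 38 between the male aerosols, and fits of 2 groups gave 17 and 0 for the last 2. An adjusted p below 0.05 gave 1888, 3791, 58, 3782 and 544 calls in the comparisons other than that between the female aerosols. Upper quartile scaling made 60.6% of the calls in females with nicotine higher, against 46.1%.

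Leaving out 1 library turned the sign of 36 changes, none of them called. In females with nicotine they ran from -0.069 to 0.0083 for Pecam1, -0.059 to 0.036 for Flt1, -0.18 to 0.0032 for Kdr, -0.11 to 0.027 for Cdh5, -0.15 to 0.0080 for Cldn5, -0.034 to 0.099 for Mfsd2a, -0.13 to 0.0041 for Tek and -0.077 to 0.11 for Slc2a1. In females without nicotine they ran from -0.053 to 0.021 for Abcb1a, -0.13 to 0.016 for Cdh5, -0.16 to 0.024 for Cldn5, -0.020 to 0.080 for Slc2a1 and -0.023 to 0.11 for Mfsd2a. Between the female aerosols they ran from -0.049 to 0.11 for Tek, -0.061 to 0.045 for Mfsd2a, -0.11 to 0.10 for Cldn5, -0.080 to 0.093 for Cdh5, -0.011 to 0.076 for Pecam1, -0.010 to 0.10 for Flt1, -0.050 to 0.14 for Kdr and -0.10 to 0.079 for Slc2a1. In males with nicotine they ran from -0.051 to 0.050 for Cldn5, -0.069 to 0.069 for Mfsd2a, -0.053 to 0.013 for Abcb1a, -0.017 to 0.052 for Cdh5, -0.017 to 0.068 for Pecam1 and -0.0015 to 0.066 for Slc2a1. In males without nicotine they ran from -0.021 to 0.038 for Pecam1. Between the male aerosols they ran from -0.018 to 0.066 for Pecam1 and -0.079 to 0.043 for Ocln. For the sex difference with nicotine they ran from -0.14 to 0.019 for Cldn5, -0.11 to 0.077 for Slc2a1, -0.037 to 0.11 for Mfsd2a and -0.13 to 0.015 for Cdh5. For the sex difference without nicotine they ran from -0.086 to 0.091 for Kdr and -0.026 to 0.12 for Cdh5.
Each member had at least 311 reads in every library. How much of the spread between libraries, and so of the intervals, came from counting noise was not tested.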
